A study of Mus musculus with 6 samples.

Results

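The genes described here are Nr4a1 and 9 other immediate early genes, Nr4a2, Fos, Fosb, Jun, Junb, Egr1, Ier2, Atf3, and Dusp1, in single tumor cells of mouse melanomas. The set of 10 of the 25215 genes deposited was chosen by its symbols, with the low level of Nr4a1 in R499 already known from these data, so the values in R499 are given as a description. Single tumor cells were profiled from 6 tumors in 3 conditions of 2 mice each. All mice were C57BL/6 and were injected on both flanks, with 50000 tumor cells given under the skin and the tumors taken on day 15. Whether a tumor here holds the cells of 1 flank or of both is not resolved. B16 tumors, grown from the mouse melanoma line B16-F10, were left untreated. B16PD1 tumors came from the same line in mice given 200 µg of anti-PD1, an antibody that blocks the T cell checkpoint receptor PD-1, on days 5, 8, and 11. R499 tumors were left untreated and were grown from R499, a line that had been established from a B16 tumor that relapsed under radiation with anti-CTLA4 therapy, so R499 stands for 1 resistant subline. No age of the mice was given in the sources used here. The study sorted tumor cells without the leukocyte protein CD45 and made full-length libraries from single wells of a chip.

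Immediate early genes are switched on within minutes of a signal such as a growth factor, cAMP, calcium, or stress, without any need for new protein. Transcription factors already in the nucleus, among them SRF with its ternary complex partners and the CREB family, bind their promoters and are activated by kinases such as ERK, p38, RSK, and PKA. Many of the products are themselves transcription factors, and their short-lived mRNA makes the level in a cell move quickly. In pigment cells, Nr4a genes are known to respond to melanocortin signals through cAMP. Dissociation of a tissue into single cells is also known to induce these genes.

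Promoter windows were searched for 8 of the 10 genes. They ran from 250 bases before to 50 bases after the start of the RefSeq transcript on GRCm38.p6. No window of Egr1 or Ier2 was searched, so the counts below do not cover these genes. The core TGACG of the cAMP response element (CRE), the site that CREB and ATF proteins bind, was searched on both strands. It occurred at least once in 7 of the 8 windows, against 20.8% of all 32851 windows. Nr4a1 and Nr4a2 held 4 each, a number that 0.231% of all windows reached, Dusp1 held 3 (1.03%), and Fos held 2 (5.01%). The bases G and C made up 58.7% (Fos) to 81.7% (Nr4a2) of the 8 windows. The set of all windows was not matched for this share, and its part in the counts was not tested. The bases before the start and outside annotated exons are shown for these 4 genes, 5′ to 3′ on the strand of the gene, because they hold most of the cores. Capitals mark TGACG or its reverse complement CGTCA.
Nr4a1, chr15:101266596-101266845, plus strand: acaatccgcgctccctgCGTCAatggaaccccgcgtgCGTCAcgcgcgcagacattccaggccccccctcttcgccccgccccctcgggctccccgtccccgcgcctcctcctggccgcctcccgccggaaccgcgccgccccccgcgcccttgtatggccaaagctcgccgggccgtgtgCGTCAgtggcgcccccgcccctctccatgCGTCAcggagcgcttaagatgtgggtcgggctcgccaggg
Nr4a2, chr2:57124004-57124253, minus strand: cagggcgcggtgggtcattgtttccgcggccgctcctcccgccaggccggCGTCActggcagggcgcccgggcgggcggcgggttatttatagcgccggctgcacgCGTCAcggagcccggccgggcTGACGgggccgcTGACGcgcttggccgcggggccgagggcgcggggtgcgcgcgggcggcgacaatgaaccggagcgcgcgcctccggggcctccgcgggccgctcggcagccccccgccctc
Fos, chr12:85473640-85473889, plus strand: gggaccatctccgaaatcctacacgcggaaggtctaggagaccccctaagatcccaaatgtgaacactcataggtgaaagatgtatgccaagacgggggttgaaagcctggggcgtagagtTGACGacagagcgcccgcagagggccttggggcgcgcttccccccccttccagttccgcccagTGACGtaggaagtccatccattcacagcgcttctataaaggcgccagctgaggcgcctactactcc
Dusp1, chr17:26508520-26508722, minus strand: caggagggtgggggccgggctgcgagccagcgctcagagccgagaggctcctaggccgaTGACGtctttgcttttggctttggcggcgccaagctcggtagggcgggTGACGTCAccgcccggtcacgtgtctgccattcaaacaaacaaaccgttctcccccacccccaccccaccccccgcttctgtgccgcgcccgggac

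With the transcript start counted as 0, the first bases of the cores were at -233, -213, -69, and -40 in Nr4a1 and at -200, -144, -123, and -111 in Nr4a2. In Fos they were at -129 and -66. In Dusp1 they were at -191, -143, and -140, where the last 2 overlap within 1 complete CRE of letters TGACGTCA, an element in 1.79% of all windows. The stretch of Nr4a1 lies in an intron of a longer transcript of the same gene, since GENCODE M21 places the gene at chr15:101254269-101274795, and the stretch of Dusp1 lies likewise inside its gene, chr17:26505590-26562128. The stretches of Nr4a2 (gene at chr2:57106830-57124003) and Fos (gene at chr12:85473890-85477273) overlap no annotated gene. Fosb, Junb, and Atf3 held 1 core each and Jun held 0. The EGR element, letters GCGNGGGCG, occurred in Nr4a1, Nr4a2, and Fosb and in 5.55% of all windows. TATAAA occurred in Nr4a2, Fos, and Junb (13.6% of all windows). Neither the AP-1 element TGANTCA (7.81%) nor the CArG box that SRF binds (1.63%) occurred in any of the 8 windows. These are matches of letters, not measured sites, and a window without a match says only that the letters are not in that window.

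The values are TPM, a length-corrected measure of a gene's share of the transcripts of a cell, as the authors deposited them, and a gene counts as detected in a cell where its TPM is above 0. After the filter on cells, 507 of 602 cells remained, 75 to 91 per tumor, with a median of 3141 to 3838.5 genes detected per tumor. The 2 lowest medians of genes detected were those of R499015 (3141) and B16008 (3388.5). Depth in reads is unknown. The level of a gene in a tumor is the mean of log2(TPM + 1) over its cells, and an SD rests on n = 2 tumors per condition. A standard error (SE) of a difference comes from the limma fit over all 6 tumors and is moderated by the spread of the other genes. It is therefore not the spread of the 2 tumors of a condition. A share of cells is affected by depth, so each is a share at this depth and not a share of cells that express the gene. All 8 melanocyte markers (such as Tyr, Dct, and Pmel) were detected in each tumor, with a summed mean TPM of 14425 to 17667. The 11 immune markers summed to 23.9 to 365, the 6 fibroblast markers to 0 to 2.62, the 4 endothelial markers to 0 to 0.26, and the 3 keratinocyte markers were listed at 0 in all 6 tumors. The immune sum was highest in B16007 (365) and B16PD1002 (261). The share of cells with any immune marker was 37.0% and 32.0% for R499 and 22.1% to 30.2% for the other 4 tumors, so by this measure R499 was highest. The part of immune RNA in the results was not tested. All 10 genes passed the filter on low values, which left 11264 genes. Fos was the highest of the 10 by level (5.87 over the 6 tumors), followed by Atf3 (3.89) and Nr4a1 (3.77). Fosb (0.64) and Egr1 (0.65) were the lowest.

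Nr4a1, also called Nur77, is an orphan nuclear receptor that binds DNA and that T cells and many other cells induce on stimulation. The levels were 4.44 and 4.99 for B16, 4.10 and 4.0 for B16PD1, and 2.62 and 2.47 for R499. The 3 conditions did not overlap, with B16 highest and R499 lowest. It was detected in 74.7% (95% Wilson interval 64.9 to 82.5) and 83.7% (74.5 to 90.0) of B16 cells, in 72.1% (61.8 to 80.5) and 75% (65.0 to 82.9) of B16PD1 cells, and in 51.9% (41.1 to 62.4) and 48.0% (37.1 to 59.1) of R499 cells. These intervals cover counting error only. By linear TPM the mean was 73.3 ± 8.72 in B16, 48.1 ± 5.14 in B16PD1, and 28.8 ± 5.01 in R499 (SD, n = 2). Where the gene was detected, its median TPM was 57.7 and 58.9 for B16, 50.9 and 39.6 for B16PD1, and 42.1 and 39.7 for R499. R499 thus stood apart by the share of cells, while among detecting cells the range of R499 met that of B16PD1. R499 was lower than B16 by a log2 difference of -2.17 (SE 0.34), the most negative of all 11264 genes, and this difference chose the set.

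**Figure D1:**
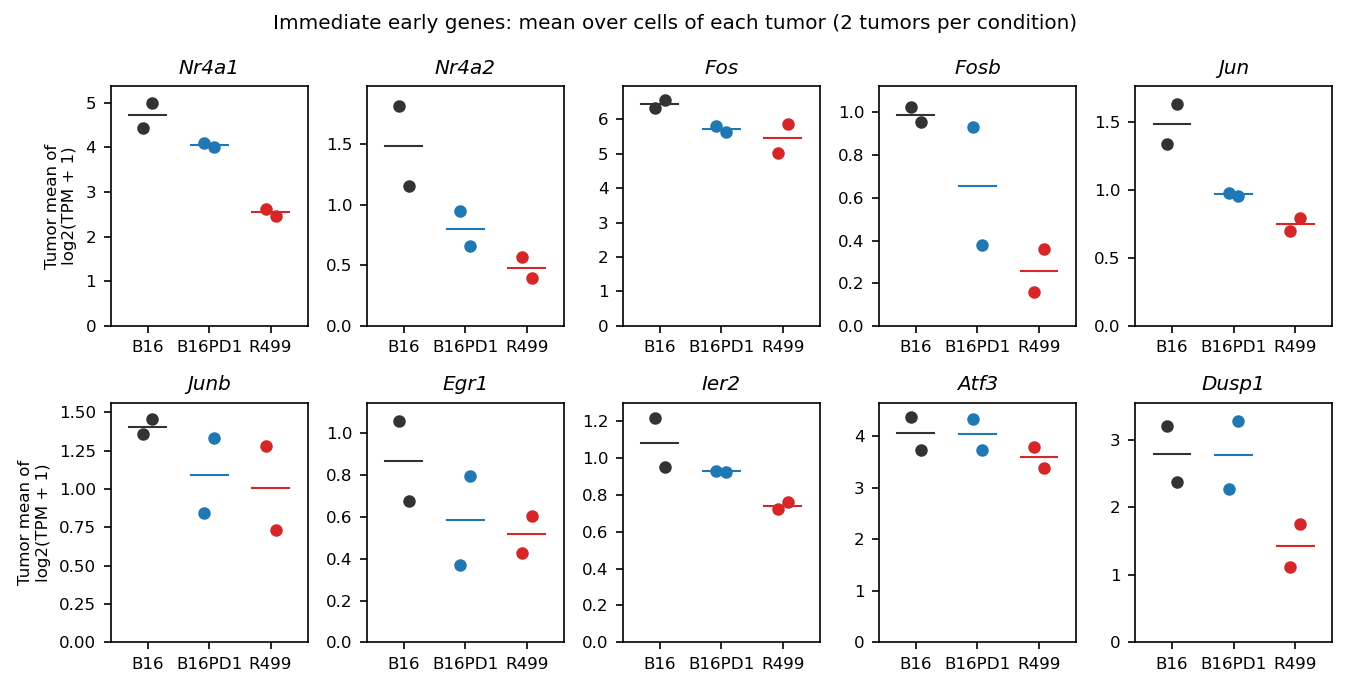
Mean of log2(TPM + 1) over the cells of each tumor for the 10 genes, with 1 point per tumor and a line at the mean of the 2 tumors of a condition; the vertical axis starts at 0 and its range differs between genes. The R499 points of Nr4a1 lie at 2.62 and 2.47, below the other 4 tumors, and those of Atf3 lie at 3.80 and 3.38, the first among the other 4 tumors and the second below them.

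Nr4a2, or Nurr1, is a second receptor of the family, and is best known from dopamine neurons. It had levels of 1.81 and 1.15 for B16, 0.94 and 0.66 for B16PD1, and 0.56 and 0.39 for R499, again without overlap between conditions. It was detected in 38.5% and 25.6% of B16 cells, 20.9% and 17.0% of B16PD1 cells, and 11.1% and 9.33% of R499 cells. The 2 B16 tumors differed from each other by more than the B16PD1 tumors did. Nr4a3, the remaining receptor of the family and not one of the 10, was at 2.31 and 2.20 for B16, 1.22 and 1.31 for B16PD1, and 1.49 and 1.19 for R499. Unlike Nr4a1, its R499 and B16PD1 tumors overlapped, with a difference of 0.075 (SE 0.28) between them.

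Fos, the partner of Jun proteins in the AP-1 dimer, was at 6.32 and 6.56 for B16, 5.79 and 5.64 for B16PD1, and 5.02 and 5.87 for R499. R499 overlapped B16PD1 because R499016 lay above both of its tumors. The gene was detected in 86.8% and 93.0% of B16 cells, 83.7% and 81.8% of B16PD1 cells, and 74.1% and 81.3% of R499 cells. Its mean TPM was 204 ± 15.2 in B16, 163 ± 4.53 in B16PD1, and 163 ± 37.7 in R499 (SD, n = 2). Fosb, which forms AP-1 dimers like Fos, was much sparser, with levels of 1.03 and 0.95 for B16, 0.93 and 0.38 for B16PD1, and 0.16 and 0.36 for R499. It was detected in 26.4% and 22.1%, 23.3% and 12.5%, and 4.94% and 8.00% of cells in the same order. By level the conditions did not overlap, though B16PD1000 lay close to B16 and B16PD1002 close to R499016. By share of cells, B16PD1000 lay between the 2 B16 tumors.

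Jun, the core AP-1 partner and a target of the kinase JNK, was at 1.34 and 1.64 for B16, 0.98 and 0.96 for B16PD1, and 0.70 and 0.80 for R499, without overlap. It was detected in 33.0% and 38.4%, 30.2% and 27.3%, and 18.5% and 20.0% of cells. Junb, a Jun protein with weaker activity on many AP-1 sites, was at 1.36 and 1.45 for B16, 0.84 and 1.33 for B16PD1, and 1.28 and 0.73 for R499. The ranges of B16PD1 and R499 covered nearly the same values, and both lay below B16. Atf3, a stress-induced member of the ATF/CREB family that also pairs with Jun proteins, was at 4.38 and 3.73 for B16, 4.34 and 3.73 for B16PD1, and 3.80 and 3.38 for R499. It was detected in 57.0% to 70.9% of the cells of each tumor. It was the only one of the 10 whose R499 and B16 tumors overlapped.

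Egr1, a zinc finger factor that is a classic target of ERK through SRF, was detected in just 71 of 507 cells (14.0%). Its level was 1.06 and 0.68 for B16, 0.37 and 0.80 for B16PD1, and 0.43 and 0.60 for R499. Both R499 tumors lay below B16 and between the 2 B16PD1 tumors. Ier2, a nuclear protein induced along with Fos and Jun, was at 1.21 and 0.95 for B16, 0.93 and 0.93 for B16PD1, and 0.72 and 0.76 for R499. The shares of cells for Ier2 were 25.3% and 18.6%, 17.4% and 21.6%, and 14.8% and 14.7%. By share of cells the B16 and B16PD1 tumors of Ier2 overlapped, which they did not by level.

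Dusp1, the phosphatase that switches off p38, JNK, and ERK, followed a different order. Its level was 3.20 and 2.38 for B16, 2.27 and 3.27 for B16PD1, and 1.11 and 1.75 for R499. Both R499 tumors lay below the other 4, and B16 and B16PD1 spanned the same range. It was detected in 54.9% and 44.2% of B16 cells, 44.2% and 56.8% of B16PD1 cells, and 23.5% and 32.0% of R499 cells.

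**Figure D2:**
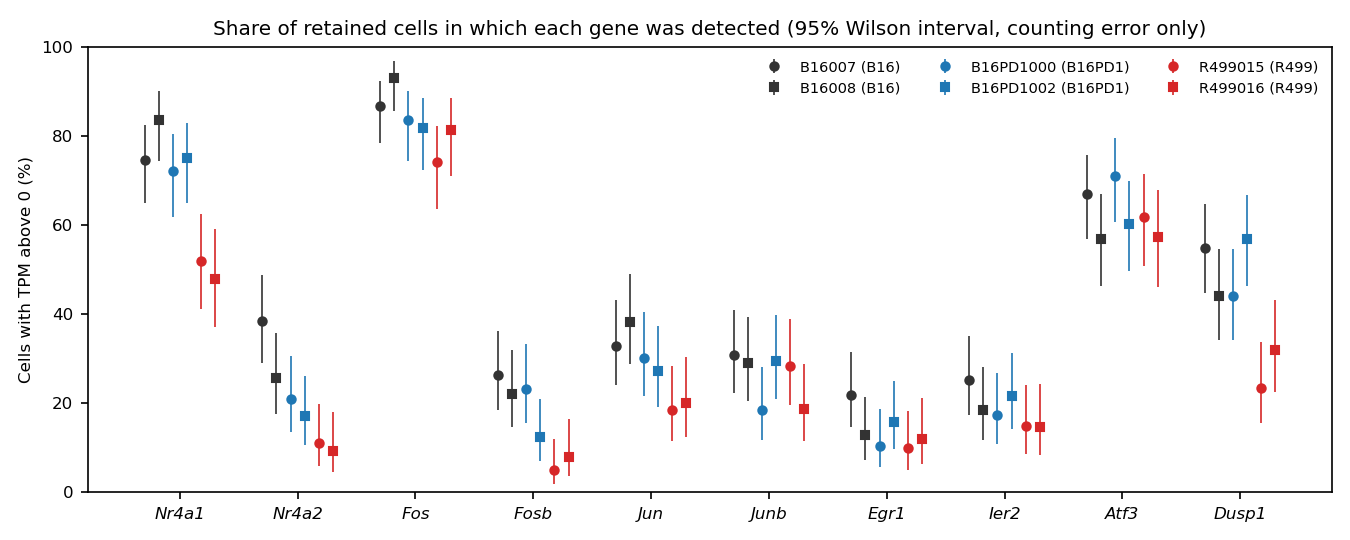
Share of the retained cells of each tumor with TPM above 0 for the 10 genes, in percent, with 95% Wilson intervals that cover counting error only; color gives the condition and the marker gives the tumor. For Nr4a1 the shares of R499 are 51.9% and 48.0%, and those of the other 4 tumors are 72.1% to 83.7%.

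Whether the lower Nr4a1 of R499 was shared by the other immediate early genes was read from the remaining 9, without Nr4a1 itself. All 9 had a lower mean in R499 than in B16, and in 8, all but Atf3, both R499 tumors lay below both B16 tumors. Of all genes tested, 30.1% did so. The median difference of the 9 was -0.73, against -0.073 over all genes. After Nr4a1, Dusp1 had the most negative difference at -1.35 (SE 0.39). Nr4a2 differed by -1.0 (SE 0.24), Fos by -0.99 (SE 0.35), Jun by -0.74 (SE 0.24), and Fosb by -0.73 (SE 0.19). The other 4, Atf3, Junb, Egr1, and Ier2, ranged from -0.47 to -0.34 with SE of 0.19 to 0.36. The sizes were thus unequal, and no other gene of the set reached the difference of Nr4a1. Of the 10, only Nr4a1 passed the adjusted threshold of 0.05 in limma, where 0.0621% of all genes did. Because that contrast chose the set, nothing is read from this count, and it was lost with 1 of the tumors B16008, R499015, or R499016 left out.

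Against B16PD1, R499 was lower in the mean of all 10 genes. Both of its tumors lay below in 6 (Nr4a1, Nr4a2, Fosb, Jun, Ier2, and Dusp1), as in 31.3% of all genes. Nr4a1 differed by -1.51 (SE 0.34) and Dusp1 by -1.34 (SE 0.39). The other 8 differed by -0.44 to -0.068 (SE 0.19 to 0.36). The median of the 10 was -0.30, against -0.089 over all genes. With the genes detected per tumor as a covariate, the difference was above 0 for Nr4a2 (0.38), Egr1 (0.38), Atf3 (0.18), and Ier2 (0.13). It stayed negative for the remaining genes of the set. With 0 of the 10 called, where 0.071% of all genes were, this contrast shares the R499 tumors with the former one and is a description likewise. At an unadjusted p under 0.05 there were 2 in limma, where 10.2% of all genes were. Both R499 tumors lay below all 4 tumors of B16 and B16PD1 in the same 6 genes, as in 17.8% of all genes.

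The remaining contrast, B16PD1 against B16, did not choose the set, although it shares the B16 tumors with the one that did, and asks whether anti-PD1 treatment of the same line moved these genes. None of the 10 passed the threshold (limma with Benjamini-Hochberg adjustment), and 0% of all genes were called. The means of all 10 were lower in B16PD1, with a median difference of -0.33 against 0.012 over all genes. In 7 of them, all but Egr1, Atf3, and Dusp1, both B16PD1 tumors lay below both B16 tumors, as in 15.4% of all genes. Fos differed by -0.72 (SE 0.35), Nr4a2 by -0.68 (SE 0.24), Nr4a1 by -0.66 (SE 0.34), and Jun by -0.52 (SE 0.24), each with an adjusted p of 0.989. At an unadjusted p under 0.05 there were 2, Nr4a2 (0.0129) and Jun (0.0416), where 4.69% of all genes were. Fosb differed by -0.34 (SE 0.19), Junb by -0.32 (SE 0.27), Egr1 by -0.28 (SE 0.19), and Ier2 by -0.15 (SE 0.21). For Atf3 (-0.022, SE 0.36) and Dusp1 (-0.017, SE 0.39), the difference was far below its error, and its sign changed when B16007 was left out (0.30 and 0.39). A difference in these genes between the treated and untreated tumors was therefore not called at this threshold with 2 tumors each.

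**Figure D3:**
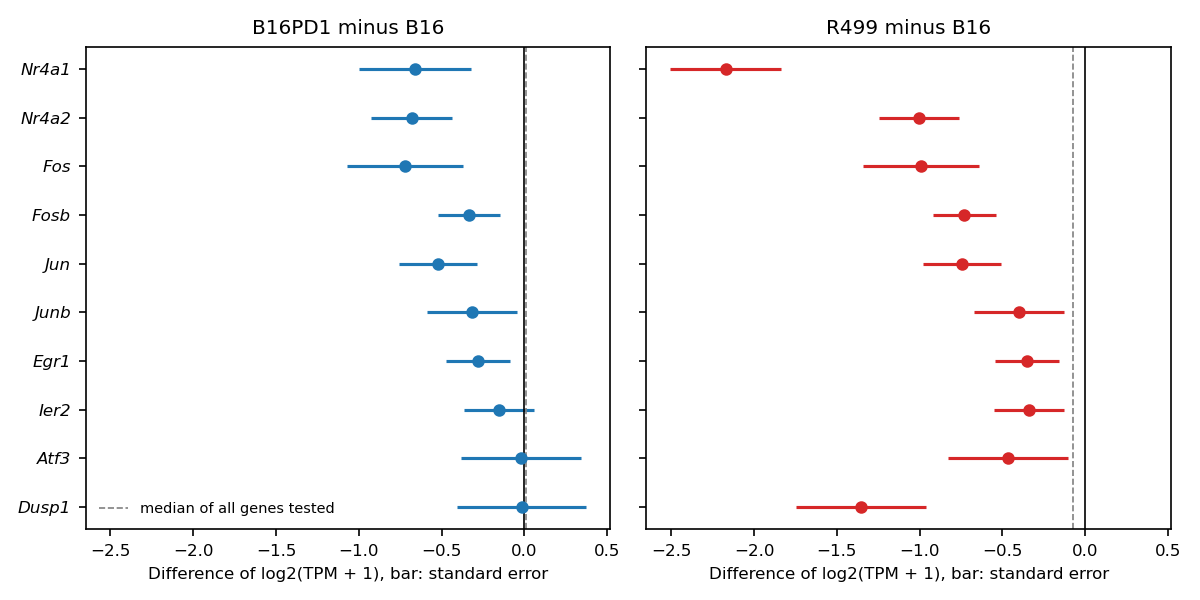
Difference of log2(TPM + 1) from B16 for each gene, on the left for B16PD1 and on the right for R499, with points at the difference of the tumor means, bars of 1 standard error, and a dashed line at the median of all genes tested. Each point lies below 0, with Nr4a1 at -2.17 in R499 and at -0.66 in B16PD1, and Dusp1 at -1.35 and -0.017.

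By level, the order B16 above B16PD1 above R499, with no overlap at either step, was met by 5 of the 10 genes. These were Nr4a1, Nr4a2, Fosb, Jun, and Ier2, and 3.24% of all genes met it. By share of cells, the B16 and B16PD1 tumors overlapped in Nr4a1, Fosb, and Ier2. For Nr4a1 that share was 75% in B16PD1002 and 74.7% in B16007. Both steps use the B16PD1 tumors and the contrast that chose the set is part of the order, so the count is a description. The steps differed between genes. For Nr4a1 the larger step was from B16PD1 to R499 (-1.51 against -0.66), and for Nr4a2 it was from B16 to B16PD1 (-0.68 against -0.32). For Dusp1 the first step was -0.017 and the second -1.34.

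Between cells of a tumor, the level of the 10 genes correlated with the number of genes detected. The mean Pearson r over 6 tumors ran from 0.10 for Nr4a2 to 0.26 for Jun. The number of genes detected is not depth in reads, which is unknown. Cells were therefore divided at 2947 and 4236 genes detected, which gave 3 classes of equal size over all retained cells, and the share was averaged over the classes. For Nr4a1 this gave 73.9% and 83.5% for B16, 68.8% and 73.1% for B16PD1, and 56.4% and 48.8% for R499. The nearest tumors of R499 and the other conditions, at 51.9% and 72.1% over all cells, were closer by this average, at 56.4% and 68.8%. For Dusp1 it gave 54.3% and 44.9%, 42.2% and 54.1%, and 26.5% and 34.0%. For Junb it gave 30.2% and 29.0% for B16, 16.8% and 27.4% for B16PD1, and 32.5% and 19.9% for R499. In Junb, R499015 thus lay above both B16 tumors, where by the share over all cells (28.4%) it lay below them. For Fos it gave 86.6% and 93.4%, 81.5% and 80.3%, and 77.7% and 83.6%, so that R499016 lay above both B16PD1 tumors, where by the share over all cells (81.3%) it lay below them. In the class with the most genes detected, Nr4a1 was detected in 96.9% and 92.0% of B16 cells and in 85.0% and 50% of R499 cells, so within that class the 2 R499 tumors were far apart. With a covariate for the genes detected per tumor, the difference of R499 from B16 was -2.61 for Nr4a1, -0.67 for Dusp1, and -0.074 for Atf3, and 0 of the 10 genes passed the adjusted threshold in limma. The part of depth in the differences cannot be told from TPM.

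**Figure D4:**
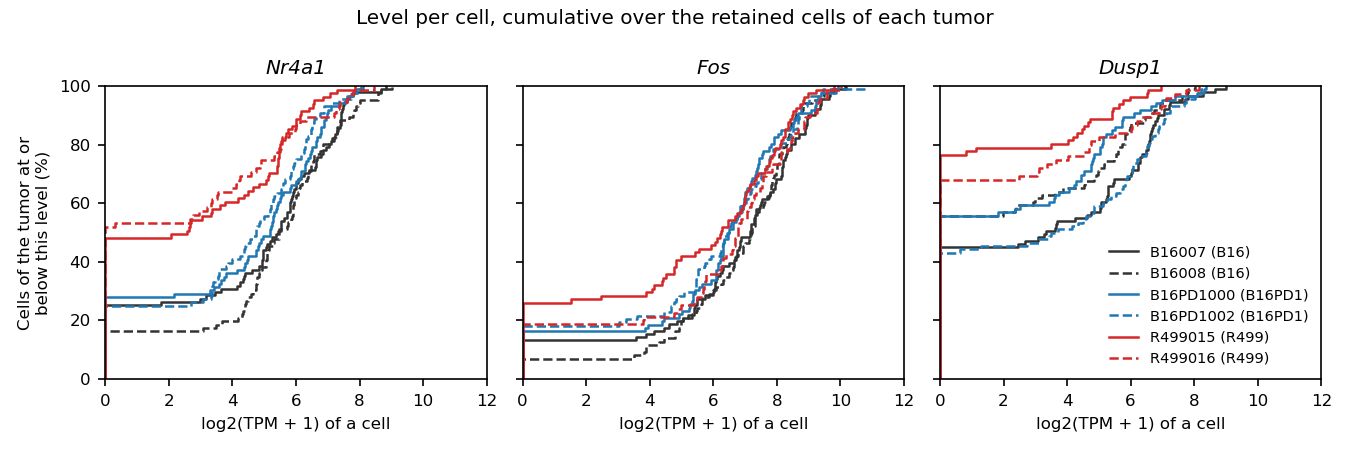
Cumulative share of cells, in percent, at or below each level of log2(TPM + 1) for Nr4a1, Fos, and Dusp1, with 1 line per tumor; the height at 0 is the share of cells in which the gene was not detected. The R499 lines of Nr4a1 start at 48.1% and 52.0% and those of B16 at 25.3% and 16.3%.

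A cell held a mean of 4.59 and 4.24 of the 10 genes for B16, 3.92 and 3.98 for B16PD1, and 2.99 and 3.01 for R499. The 3 conditions did not overlap in this number. It counts Nr4a1, whose low level in R499 chose the set, and is not adjusted for genes detected, so it is a description. At least 6 of the 10 were detected in 40.7% and 26.7% of B16 cells, 24.4% and 26.1% of B16PD1 cells, and 12.3% and 5.33% of R499 cells. Across tumors these were 118 cells, 23.3% of the 507. In contrast, 23 cells (4.54%) held none, and 8 and 4 of these were from the R499 tumors, against 1 to 4 from each other tumor. Cells with Nr4a1 held 3.55 of the other 9, and cells without it held 2.25. The first also had more genes detected, with a median of 3984 against 2807. In R499016 the gap was smallest, with 2.61 against 2.46.

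After the linear relation with the number of genes detected was removed within each tumor, the 10 genes correlated weakly between cells. These correlations are a description, since cells of a tumor come from the same mouse and most values are 0. The mean r over tumors was positive for 41 of the 45 pairs, with a median of 0.065, and positive in each of the 6 tumors for 9 pairs. Jun and Atf3 had the highest mean r (0.20, from 0.13 to 0.28 over tumors), followed by Fos and Atf3 (0.19), Nr4a1 and Nr4a2 (0.18, from 0.099 to 0.26), Fos and Dusp1 (0.17), and Nr4a1 and Fos (0.16, from 0.0027 to 0.33). Nr4a1 and Atf3 had a mean r of -0.016. Nr4a1 thus ranked with Nr4a2 and Fos rather than with Atf3, and the lowest pair was Nr4a2 and Fosb at -0.076. Over 8134 genes detected in at least 10% of cells, those most like Nr4a1 were Snx1 (0.22), a sorting nexin, Ctnnd1 (0.20), the catenin p120, Cyr61 (0.19), a secreted matrix protein and immediate early gene, Nr4a2 (0.18), and Flcn (0.17), folliculin. Fos ranked 10 and Atf3 5453. The 99th percentile over these genes was 0.13. Those most like Fos were Zfp36 (0.20), which destabilizes mRNA, Ier3 (0.20), both immediate early genes, and Pgk1 (0.19), a glycolytic enzyme. Atf3 ranked 4 and Dusp1 10 for Fos. For Egr1 they were Mga, Nppb, and Prkcd (0.17 each).

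**Figure D5:**
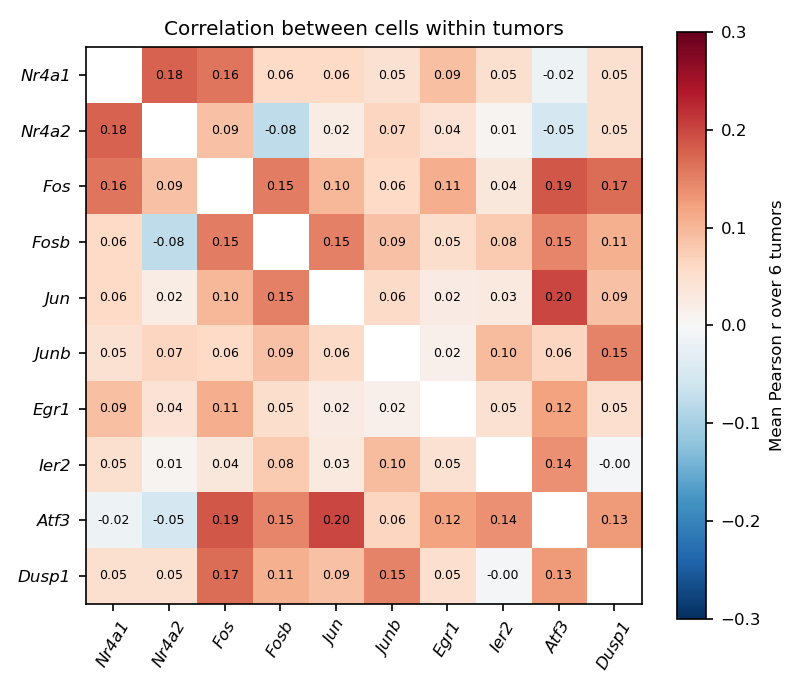
Mean over 6 tumors of the Pearson r between cells for each pair of the 10 genes, after removal of the linear relation with the number of genes detected; color and number both give r. Most of the 45 pairs lie near the median of 0.065, and the highest is Jun with Atf3 at 0.20.

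Wider lists set the 10 genes beside the rest of the program. Of 12 relatives of the AP-1, EGR, and NR4A families, 8 were tested and 0 passed in any contrast (limma), with 1 at an unadjusted p under 0.05 in B16PD1 against B16 and 1 in R499 against B16. The median difference of R499 from B16 was 0.065, and Nr4a3 was the lowest at -0.92 (SE 0.28). Nab1, a corepressor of EGR proteins, differed by 0.084 (SE 0.21). Of 38 other immediate early genes, 34 were tested and 0 passed. In R499 against B16 their median was -0.19, with 27 negative, 16 with both R499 tumors below both B16 tumors, 2 with both above, and 8 at an unadjusted p under 0.05. Of all genes, 30.1% lay below, 11.6% lay above, and 10.5% had such a p. In B16PD1 against B16 their median was 0.026, with 14 negative, 6 below, 6 above, and 4 at an unadjusted p under 0.05, against 15.4%, 17.9%, and 4.69% of all genes. The lower levels of B16PD1 in the 10 genes were thus not seen in the median of this list. Its 2 highest genes by level were Klf6, a zinc finger factor, at -0.040 (SE 0.34) in R499 against B16 and 0.53 (SE 0.34) in B16PD1 against B16, and Ier3, a regulator of ERK and survival signals, at -0.32 (SE 0.37) and 0.17 (SE 0.37). Cyr61, named above for its likeness to Nr4a1, was at 4.30 and 4.33 for B16, 4.12 and 4.32 for B16PD1, and 2.98 and 3.21 for R499. As for Dusp1, both R499 tumors lay below the other 4, with an adjusted p of 0.218 against B16.

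The lists around the pathway had medians nearer 0 than the 10 genes did. Of 17 feedback genes of ERK, 16 were tested, 0 passed, and the median was -0.17 in R499 against B16 (4 at an unadjusted p under 0.05) and -0.086 in B16PD1 against B16 (1). Of all genes, 10.5% had such a p in the first contrast and 4.69% in the second, and 0.0621% and 0% passed. Dusp6, the ERK phosphatase, differed by -0.22 (SE 0.42) in R499, and Phlda1, a target of ERK, had both R499 tumors above both B16 tumors (0.59, SE 0.36), opposite to the 10 genes. Of 23 upstream kinases and activators, all were tested, 0 passed, and the medians were -0.12 (3) and 0.053 (1). Map2k1 and Mapk3, which encode MEK1 and ERK1, differed by -0.49 (SE 0.41) and -0.17 (SE 0.39) in R499 against B16. Of 13 genes of the melanocyte cAMP pathway, all were tested, 0 passed, and the medians were -0.030 (0) and -0.037 (1). Prkar1a, a regulatory subunit of PKA, differed by -0.037 (SE 0.31). Mitf, the lineage factor that cAMP induces, was at 6.76 and 6.72 for B16, 5.95 and 6.06 for B16PD1, and 6.13 and 6.23 for R499, below B16 in both other conditions like Nr4a1, but with B16PD1 as the lowest. Of 13 heat shock genes, which dissociation can also induce, 12 were tested, 0 passed, and the medians were -0.093 (2) and -0.011 (0). Their summed mean TPM was 7120 and 7241 for B16, 6997 and 6287 for B16PD1, and 6486 and 6130 for R499. The sum was lower in R499 than in B16, as the 10 genes were, and its part in their difference was not tested. The handling times of the tumors are not given in the sources used here.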

How the data were processed

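Sorted tumor cells of 6 mice were profiled on an ICELL8 chip with full-length SMART-Seq libraries. Per the submitters' notes and the methods of the study, the authors aligned reads with STAR in 2-pass mode (mm10) and deposited TPM from RSEM, both with default parameters; versions and annotation are not given in the sources used here, and depth in reads is unknown. From the deposited TPM, cells with more than 1000 genes detected and less than 10% of TPM mitochondrial were retained, and the genes tested were those above 0 TPM in over 5 of these cells. Tumor numbers in the table (such as 007) could be matched to a condition but not to a titled sample. Wells of different tumors shared 0 of 602 well number pairs, and doublets were not called.

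Tumor means of log2(TPM + 1), where a pseudocount of 1 understates changes of low genes, were fitted with limma 3.58.1 (R 4.3.3) over all 6 tumors (eBayes with a trend, two-sided, Benjamini-Hochberg adjustment over 11264 genes, threshold 0.05), a fit tested on simulated data. The alternatives varied pseudocounts, filters, summaries, scaling, a covariate, and the tumors used. Positions are from GENCODE M21 (GRCm38) and promoters from RefSeq (GRCm38.p6). Named genes were the 10 members, the 2 highest of each other list by level and any past the threshold, and the 5, 3, and 3 genes most like Nr4a1, Fos, and Egr1 between cells. The members and lists were chosen with earlier results of these data known, and the promoter motifs after the files were read.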

Additional observations from a re-analysis of the deposited data

How the results depend on the processing

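With 2 tumors per condition, 1 tumor can decide a call. No paired analysis was possible because each mouse carried only 1 condition. In R499 against B16, the sign of all 10 genes was kept in 190 of 190 values over 19 alternatives, and Nr4a1 ranged from -3.16 with log2(TPM + 0.1) to -1.17 with log2(TPM + 10). In R499 against B16PD1, 176 of 190 signs were kept, with Nr4a1, Fosb, and Dusp1 keeping theirs in all. In B16PD1 against B16, 179 of 190 were kept. The 11 others were of Atf3, at 0.084 with log2(TPM + 0.1), 0.0019 with more than 2000 genes detected, 0.090 with no filter on cells, 3.57 percentage points by share of cells, and -0.35 to 0.30 with 1 tumor left out, and of Dusp1, at 0.0043 with log2(TPM + 0.1), 0.050 with no filter on cells, 0.937 percentage points by share of cells, and -0.52 to 0.49 with 1 tumor left out.

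The genes called in R499 against B16 (7) and in R499 against B16PD1 (8) became 28 and 22 with the cell mean subtracted, 20 and 14 among genes in at least 10% of cells, 11 and 13 with log2(TPM + 0.1), 3 and 3 with log2(TPM + 10), 20 and 14 with more than 2000 genes detected, 22 and 16 with no filter on cells, and 20 and 15 with means over 3 classes of genes detected, the last chosen after seeing the data. They became 0 and 0 with genes detected as a covariate, without a trend, with log2 of mean TPM, with no filter on genes, and by share of cells. With 1 tumor left out they were 0 (without B16008) to 10 and 3 (without B16PD1000 or R499015) to 8, and 0 to 2 (without B16007) in B16PD1 against B16. The 1 member called in R499 against B16, Nr4a1, became 0 with the covariate, without a trend, with log2 of mean TPM, with log2(TPM + 10), with no filter on genes, and by share of cells, and 0 to 1 with 1 tumor left out. The median correlation was 0.115 without the regression on genes detected. Without an adjustment for depth in reads, which TPM does not hold, low shares such as that of Egr1 remain shares at this depth. The cause of these changes was not tested.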

Other observations

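Among the other immediate early genes, the 3 that follow, with 1 heat shock regulator, were singled out after their values were seen. Ppp1r15a, a stress phosphatase subunit, was at 4.64 and 4.16 for B16, 4.40 and 4.40 for B16PD1, and 3.04 and 3.17 for R499, with both R499 tumors below the other 4 as for Dusp1 and Cyr61, and a difference from B16 of -1.29 (SE 0.33, adjusted p = 0.218 in limma). Crem, a cAMP-responsive factor, was at 3.20 and 2.87 for B16, 2.08 and 2.28 for B16PD1, and 2.24 and 2.05 for R499, so that B16PD1 and R499 overlapped below B16 as they did for Nr4a3. Its differences from B16 were -0.86 in B16PD1 (SE 0.31, adjusted p = 0.989 in limma) and -0.89 in R499 (SE 0.31, adjusted p = 0.361 in limma). Myc was at 4.85 and 5.25 for B16, 5.21 and 4.39 for B16PD1, and 4.09 and 4.14 for R499, with a difference of R499 from B16 of -0.94 (SE 0.36, adjusted p = 0.380 in limma). Hsf1, the factor that drives heat shock genes, was at 4.0 and 4.65 for B16, 3.87 and 4.23 for B16PD1, and 3.03 and 3.32 for R499, and R499 differed from B16 by -1.15 (SE 0.35, adjusted p = 0.310 in limma).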
